A study of Mus musculus with 3 samples.

Results

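The genes described here are the myosin light chains Myl1, Mylpf, Myl2, Myl3, Myl4, Myl6, Myl6b, Myl7 and Myl9 and the skeletal muscle light chain kinase Mylk2. They were taken as every probe set annotated to exactly 1 of these symbols, which gave 13 probe sets of 10 genes, out of 12394 genes measured by at least 1 such probe set. A single microarray was run per sample of normal muscle, 3 in all, which the labels number 1 to 3. All came from littermate controls between 3 and 6 weeks of age, and the labels name no strain and no particular muscle. Their treatment text describes 4-hydroxytamoxifen injected into the hindlimb of the mice that formed tumours and does not say whether these controls were injected. The study used such muscle as the normal reference for tumours of Pax7-expressing satellite cells, and no tumour array was analysed here. No comparison between conditions is possible within 1 group, so levels and the spread between muscles are what could be measured. The labels do not say whether the 3 samples came from separate animals, so the spread may be partly technical.

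A myosin motor is built from a pair of heavy chains, each of which carries 1 essential and 1 regulatory light chain wrapped around its lever arm. The essential chains are also called alkali light chains, and the regulatory chains can be phosphorylated on a serine near the N terminus by calmodulin-dependent kinases. In skeletal muscle Mylk2 is the kinase that does this, and phosphorylation raises the force of contraction at submaximal calcium. In smooth muscle and in non-muscle cells the same modification, made by other kinases, switches the motor on. Fast fibres, slow fibres, atria, ventricles and smooth muscle use different combinations of light chain genes, which is why these genes serve as markers of the kind of muscle in a sample.

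All levels are log2 RMA values as deposited, where a difference of 1 is a 2-fold difference. A probe set is a group of short array probes for 1 transcript, and probe sets differ in binding strength, so levels of different probe sets are not ranked against each other. A probe set was called detected in a muscle when it lay above the background level there, set at the 95th percentile of 55 genes (74 probe sets) that belong to other organs. This level was 6.03, 5.94 and 6.14 in muscles 1, 2 and 3. The median of the whole array was 6.12 in each muscle. Across the array, 9 of 12124 probe sets varied more between muscles than others of like level, and in 8 of these muscle 3 lay farthest from the middle value. None of the 9 belongs to a light chain gene, Mylk2 or a partner gene named below.

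The regulatory sequence in front of these genes is shown for those starts with a narrow E-box or a CArG box, both defined below, in the 250 bases before the start. RefSeq promoters of the mouse assembly GRCm38.p6, 250 bases before to 50 bases after a start, matched 9 of the 10 genes, all but Mylk2, with 11 starts, of which Myl2 and Myl6 have 2 each. Both strands were searched for the E-box, which myogenic bHLH factors such as MyoD bind, in the wide pattern CANNTG and in the narrow pattern CAGCTG that it includes. The search also covered the CArG box, to which serum response factor binds, the MEF2 site and the TATA box in the pattern TATAAA. The narrow E-box was found in Myl1, Mylpf and Myl2, at 4 of the 11 starts, and in 16.3% of all 32851 promoters of the same length. The CArG box was found at 4 of the 11 starts, those of Myl3, Myl7 and Myl9 and the second of Myl6, and in 1.63% of all promoters. The wide E-box was found at 9 of 11 starts and in 72.3% of all promoters, and TATAAA at 2 of 11, in Myl1 and Myl2, and in 13.6%. Both TATAAA matches lie on the strand opposite to transcription, 95 bases before the start of Myl1 and 216 before the second of Myl2. No start of these genes held a MEF2 site in this window, against 3.19% of all promoters. These matches are descriptions of letters and not measured binding sites.

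The 250 bases before the start, 5′ to 3′ in the direction of transcription, are first given for the 3 genes with the narrow E-box, with that motif in capitals, because it is the rarer of the 2 E-box patterns among all promoters. In Myl1 it begins 224 bases before the start, in Mylpf 51 bases and at the second start of Myl2 130 bases. At the first start of Myl2 it lies after the start, so that stretch is not shown.
Myl1, chr1:66945057-66945306, minus strand: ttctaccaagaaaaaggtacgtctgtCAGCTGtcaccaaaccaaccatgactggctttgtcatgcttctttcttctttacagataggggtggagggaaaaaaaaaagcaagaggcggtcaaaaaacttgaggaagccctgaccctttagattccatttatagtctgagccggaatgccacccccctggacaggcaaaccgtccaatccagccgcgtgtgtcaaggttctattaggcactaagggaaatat
Mylpf, chr7:127211358-127211607, plus strand: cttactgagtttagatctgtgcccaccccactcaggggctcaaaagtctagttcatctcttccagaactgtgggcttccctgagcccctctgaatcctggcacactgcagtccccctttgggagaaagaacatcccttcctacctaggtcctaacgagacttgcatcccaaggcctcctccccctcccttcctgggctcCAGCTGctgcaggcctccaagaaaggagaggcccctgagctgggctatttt
Myl2, second start, chr5:122092939-122093188, plus strand: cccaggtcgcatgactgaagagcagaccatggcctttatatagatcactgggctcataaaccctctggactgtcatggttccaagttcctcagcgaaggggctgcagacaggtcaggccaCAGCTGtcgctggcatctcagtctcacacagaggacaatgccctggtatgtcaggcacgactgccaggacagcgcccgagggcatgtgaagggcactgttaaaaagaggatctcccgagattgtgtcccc

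The next 4 sequences hold a CArG box, again in capitals, and are shown because 1 of these genes, Myl7, was below background in muscle while Myl3, Myl6 and Myl9 were detected. The box begins 85 bases before the start in Myl3, 50 bases before the second start of Myl6, 61 bases before that of Myl7 and 161 bases before that of Myl9.
Myl3, chr9:110763428-110763677, plus strand: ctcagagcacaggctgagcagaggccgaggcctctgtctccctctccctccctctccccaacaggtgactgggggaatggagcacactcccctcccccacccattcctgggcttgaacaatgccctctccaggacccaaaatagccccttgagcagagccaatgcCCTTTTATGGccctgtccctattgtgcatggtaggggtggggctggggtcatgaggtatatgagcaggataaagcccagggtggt
Myl6, second start, chr10:128493010-128493259, minus strand: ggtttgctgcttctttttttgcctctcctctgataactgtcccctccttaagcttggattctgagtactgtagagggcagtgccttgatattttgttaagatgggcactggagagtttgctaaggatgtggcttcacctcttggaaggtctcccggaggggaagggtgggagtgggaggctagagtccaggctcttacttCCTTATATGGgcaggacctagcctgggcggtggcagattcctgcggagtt
Myl7, chr11:5898783-5899032, minus strand: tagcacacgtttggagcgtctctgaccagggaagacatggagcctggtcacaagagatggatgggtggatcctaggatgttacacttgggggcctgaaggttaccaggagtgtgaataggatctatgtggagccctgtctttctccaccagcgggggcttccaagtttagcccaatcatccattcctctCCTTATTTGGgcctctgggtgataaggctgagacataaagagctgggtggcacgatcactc
Myl9, chr2:156775214-156775463, plus strand: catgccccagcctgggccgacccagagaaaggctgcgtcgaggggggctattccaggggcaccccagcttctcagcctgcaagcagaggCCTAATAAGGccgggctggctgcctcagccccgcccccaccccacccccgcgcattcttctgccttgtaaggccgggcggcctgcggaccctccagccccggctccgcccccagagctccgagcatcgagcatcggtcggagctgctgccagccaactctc

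**Figure D1:**
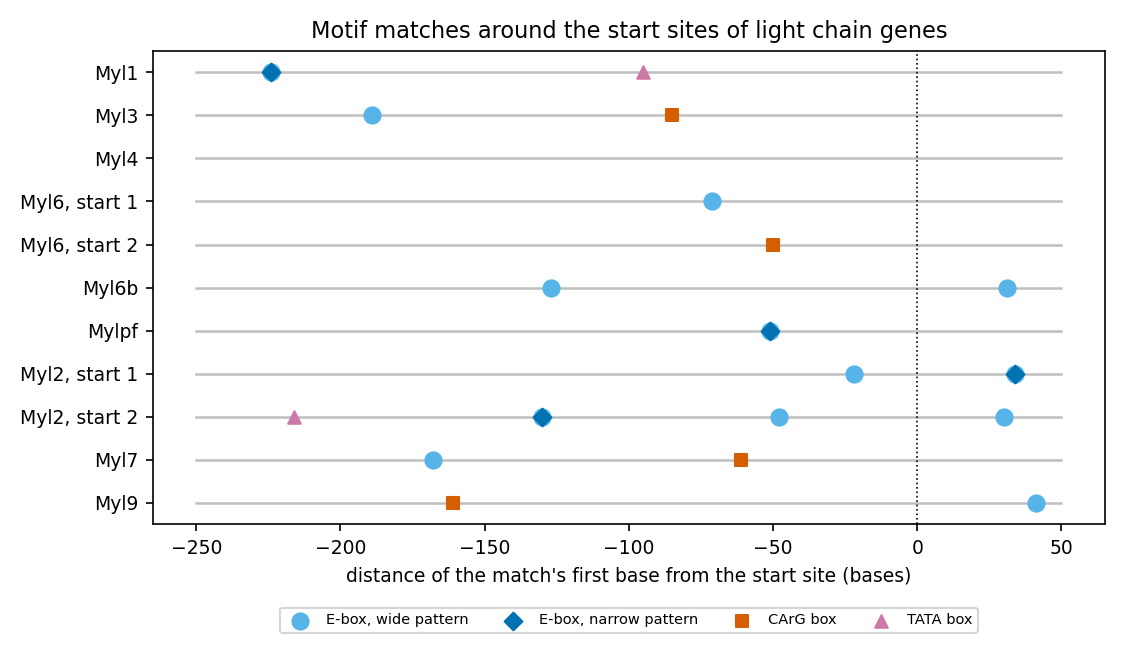
Motif matches around the 11 RefSeq start sites of 9 light chain genes, with 1 line per start from 250 bases before to 50 bases after it, and the distance of the first base of each match from the start in bases on the horizontal axis. CArG boxes stand 85, 50, 61 and 161 bases before the starts of Myl3, Myl6, Myl7 and Myl9, and the narrow E-box stands in Myl1, Mylpf and both starts of Myl2.

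Light chain genes of fast, slow, smooth and non-muscle type were detected, as was Myl4, a chain of both embryonic muscle and the atrium. The regulatory atrial chain Myl7 and the essential chain Myl6b were not. By the probe set with the highest mean, 8 of the 10 genes exceeded background in every muscle, and Myl6b and Myl7, the other 2, did so in no muscle. Over all genes 56.8% exceeded it in every muscle. Of the 13 probe sets, 10 were above background in every muscle and 3 in none, against 48.4% of all probe sets above it in every muscle. No member probe set was above background in only 1 or 2 muscles.

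**Figure D2:**
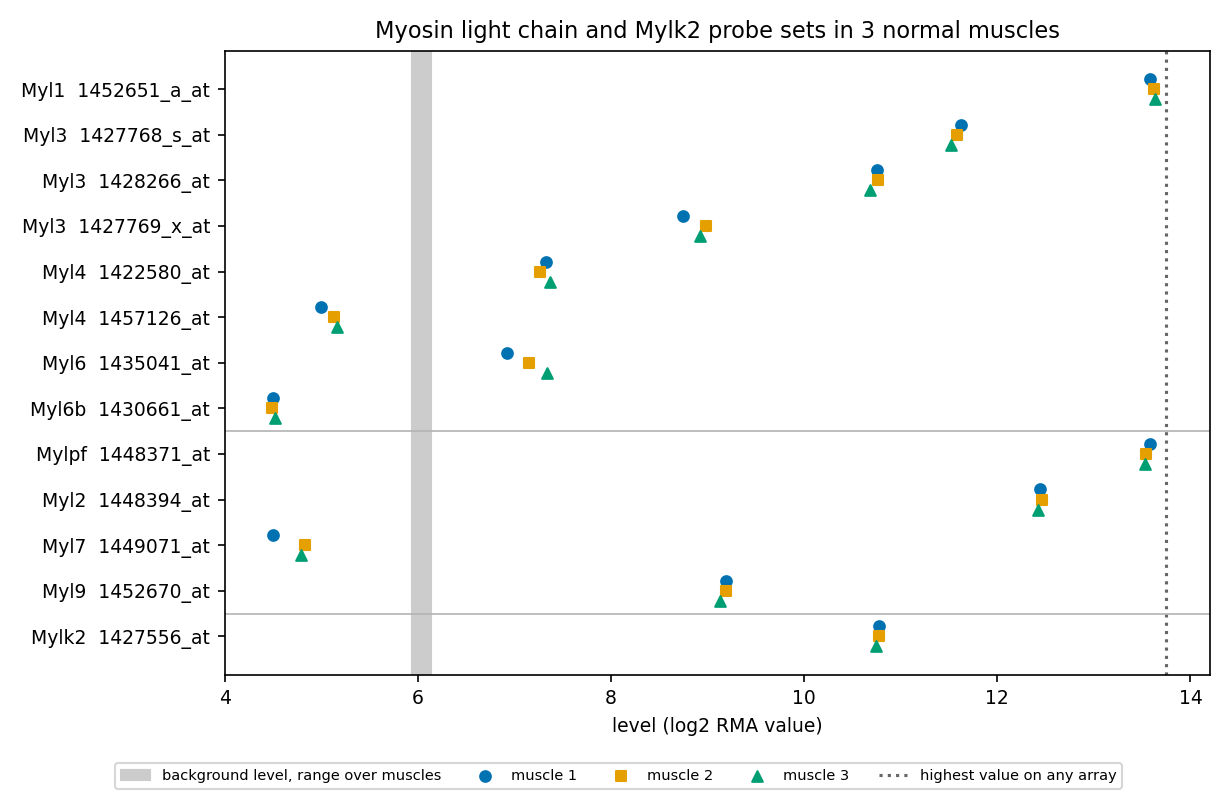
Level of each of the 13 probe sets in the 3 muscles as log2 RMA values, with essential light chains on top, regulatory light chains in the middle and Mylk2 at the bottom. The grey band spans the background levels of 5.94 to 6.14 and the dotted line marks 13.75, the highest value on any array; Myl6b, Myl7 and 1 probe set of Myl4 lie left of the band.

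Myl1 encodes the essential light chains of fast fibres, 2 proteins, MLC1f and MLC3f in older naming, made from different starts of the same gene. Its probe set 1452651_a_at read 13.58, 13.63 and 13.63 in muscles 1, 2 and 3. The 3 muscles lay within a range of 0.047, which is 1.03-fold, around a mean of 13.61 ± 0.026 (SD, n = 3). The suffix a marks a probe set shared by transcripts of the same gene, so MLC1f and MLC3f cannot be told apart in these values. The values lay 0.15, 0.12 and 0.11 below the highest value of their arrays, and saturation could not be tested without probe signals. The start shown above is the only one that the promoter table holds for this gene.

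Myl3, the essential chain of slow fibres and of the heart ventricle, was detected by all 3 of its probe sets. Probe set 1428266_at, whose probes carry no mark of matches to other transcripts, read 10.75, 10.76 and 10.68 in muscles 1, 2 and 3. Probe set 1427768_s_at read 11.62, 11.59 and 11.52 in the same order. Both were lowest in muscle 3, by 0.077 and 0.080 below the mean of the other muscles. Probe set 1427769_x_at read 8.75, 8.99 and 8.93, and so was lowest in muscle 1 and not in muscle 3. The suffixes s and x mark probes that can match transcripts of other genes, and the spread of the x probe set, 0.12, was above the 0.045 and 0.049 of the other 2. Without muscle 1 its range was 0.063, against 0.24 with all muscles. Myl3 carries a CArG box in the sequence shown above.

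Myl4 encodes the essential chain of embryonic muscle and of the heart atrium. Its probe set 1422580_at read 7.33, 7.27 and 7.37 in muscles 1, 2 and 3, above background in each, with a mean of 7.32 ± 0.051 (SD, n = 3). Its other probe set, 1457126_at, read 4.99, 5.14 and 5.17, below background in all 3. The detection of Myl4 therefore rests on 1 of its 2 probe sets. Of 5 markers of developing muscle, 3 exceeded background in every muscle, a share near the 56.8% of all genes, so the count shows nothing particular to them. These were Myh3, Myh8 and the cardiac actin gene Actc1. Ncam1 exceeded background in 2 muscles and Chrng, the fetal subunit of the acetylcholine receptor, in none. For Ncam1 this rests on probe set 1426864_a_at alone. The remaining probe sets of Ncam1 were detected in no muscle, with means from 3.20 to 5.75. The embryonic myosin heavy chain Myh3 averaged 6.95 ± 0.093, the perinatal Myh8 6.49 ± 0.12 and Actc1 13.43 ± 0.023 (SD, n = 3 each).

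Myl6 is the essential chain of smooth muscle and of non-muscle cells. Its single-gene probe set 1435041_at read 6.92, 7.15 and 7.33 in muscles 1, 2 and 3, with a mean of 7.14 ± 0.21 (SD, n = 3). This was the widest range of any detected member, 0.41 or 1.33-fold, with muscle 1 low and muscle 3 high. Without muscle 1 the range was 0.18. By limma's variance test it did not exceed the spread of probe sets of like level (adjusted p = 0.987). A further 2 probe sets are annotated to Myl6 together with the pseudogenes Gm8894 and Gm5526 and were left out by the selection rule. They read 10.57, 10.59 and 10.55, and 11.35, 11.37 and 11.36, in muscles 1, 2 and 3. Their ranges, 0.048 and 0.018, do not show the difference between muscles 1 and 3 seen in the single-gene probe set.

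Myl6b, in human an essential chain of slow muscle and non-muscle cells, is also named MLC1SA. It lies next to Myl6 on chromosome 10, with 0 annotated genes between them. Its probe set 1430661_at read 4.51, 4.49 and 4.53 in muscles 1, 2 and 3. All 3 values were below background, with a mean of 4.51 ± 0.017 (SD, n = 3). A level below background does not show that the gene is silent, since a probe set may bind weakly.

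Among the regulatory chains, Mylpf is the phosphorylatable chain of fast fibres and the main target of Mylk2. Its probe set 1448371_at read 13.58, 13.54 and 13.53 in muscles 1, 2 and 3, with a mean of 13.55 ± 0.027 (SD, n = 3). The range was 0.052, or 1.04-fold, with muscle 1 the highest, whereas Myl1 was lowest in muscle 1. Both fast light chains thus departed from the other muscles by less than 0.05 in muscle 1, Mylpf by 0.046 and Myl1 by -0.045. Mylpf, like Myl1, lay close to the top of the scale, 0.15 to 0.21 below the highest value of its array. The fast fibre markers fixed for comparison, among them Myh4, Myh1 and Myh2, were above background in every muscle for 7 of 7 genes by their highest probe sets. Another probe set of Myh1, 1452465_at, was below background in every muscle, at 3.74 ± 0.45 (SD, n = 3). The share of all genes above background in every muscle was 56.8%.

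Myl2 is the regulatory chain of slow fibres and of the heart ventricle. Probe set 1448394_at read 12.44, 12.46 and 12.42 in muscles 1, 2 and 3. The mean was 12.44 ± 0.023 (SD, n = 3), and the 3 muscles spanned 1.03-fold. The slow fibre markers were above background in all muscles for 6 of 6 genes by their highest probe sets, with the slow myosin heavy chain Myh7 at 11.24 ± 0.058. Further probe sets of some of these slow fibre genes were below background in every muscle. Myl2 and Myl3 are both also heart genes, and 7 heart markers were measured beside them. None of the 7 exceeded background in all muscles, against 56.8% of all genes. In every muscle 6 of these 7 were below background. Among them were the natriuretic peptide genes Nppa and Nppb at 4.00 ± 0.23 and 4.21 ± 0.10. Another was the heart myosin heavy chain Myh6, whose brighter probe set was at 4.09 ± 0.33 (SD, n = 3 each). The seventh, the cardiac troponin gene Tnnt2, was above background in 2 muscles on probe set 1424967_x_at. The mean of this probe set lay only 0.059 above the mean background level, and its suffix x marks probes that can match other genes. The second Tnnt2 probe set, 1418726_a_at, was detected in no muscle and averaged 5.04 ± 0.048 (SD, n = 3).

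Myl7 encodes the regulatory chain of the heart atrium. Probe set 1449071_at read 4.50, 4.83 and 4.79 in muscles 1, 2 and 3, all below background. The mean was 4.71 ± 0.18 (SD, n = 3), and the range of 0.33 lies among values with no order, since none was above background. Myl7 has a CArG box 61 bases before its start, as shown above, as have the detected genes Myl3, Myl6 and Myl9.

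Myl9 is the regulatory chain of smooth muscle and of many non-muscle cells. Probe set 1452670_at read 9.20, 9.19 and 9.13 in muscles 1, 2 and 3, with a mean of 9.17 ± 0.035 (SD, n = 3). Muscle 3 was lower than the mean of the others by 0.060, and all 3 values were above background. By their highest probe sets, 5 of 6 smooth muscle markers were detected in every muscle, against 56.8% of all genes. Acta2, the smooth muscle actin, was at 11.24 ± 0.021, the smooth muscle heavy chain Myh11 at 7.20 ± 0.091 and Tagln at 9.23 ± 0.078, while Cnn1 was below background in all muscles at 5.73 ± 0.13 (SD, n = 3 each). The Acta2 value comes from a probe set with suffix s, which can match other genes, and its other probe set lay under background in each muscle, at 3.33 ± 0.072. The other probe set of Myh11 was below background as well, at 4.19 ± 0.22. The median level of the 6 smooth muscle markers was 7.77, 7.80 and 7.72 in muscles 1, 2 and 3. In whole tissue, fewer cells of a type and less RNA per cell cannot be told apart, so the share of vessels and other non-fibre cells in the signal of Myl6 and Myl9 was not tested.

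Mylk2, the kinase of skeletal muscle, read 10.77, 10.78 and 10.74 in muscles 1, 2 and 3 with probe set 1427556_at. Its mean was 10.76 ± 0.018 (SD, n = 3), and its range of 0.032, or 1.02-fold, was the narrowest of the detected members over the 3 muscles. The SD was 0.37 times the spread that limma fitted for probe sets of this level.

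Spread between muscles was small for most members. Of the 10 detected probe sets, 8 had a range under 0.2, against 60.6% of all probe sets tested. The median SD of the 10 was 0.040, and that of all 12124 tested probe sets was 0.086. Without muscle 3 the median of the members was 0.026. Spread falls with level on these arrays and several members are bright, so the SD was also set against the prior SD that limma fits at the same level. By that measure 6 of 10 members lay below the prior, against 58.0% of all probe sets, which is close to the same share. The variance test of limma called 0 of the 10 at an adjusted p under 0.05, and 0 had an unadjusted p under 0.05. Over the whole table it called 0.0742% of probe sets, and 602 of 12124 had an unadjusted p under 0.05. The lowest adjusted p of a member was 0.987. The largest ratios of SD to prior were 1.69 for Myl6 and 1.65 for the x probe set of Myl3.

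**Figure D3:**
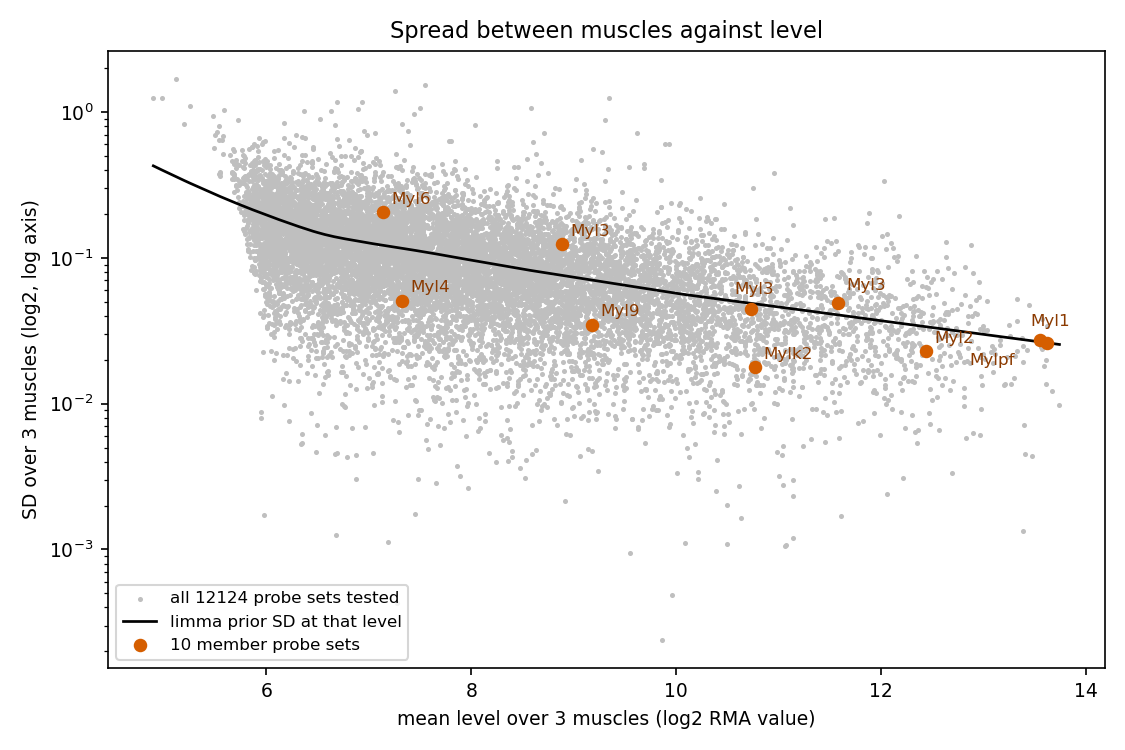
SD over the 3 muscles, on a log axis in log2 units, against the mean level in log2 RMA values, for 12124 probe sets tested (grey) and the 10 detected member probe sets (orange), with the prior SD fitted by limma as a line. Myl6 and 1 probe set of Myl3 lie above the line at SDs of 0.21 and 0.12, and Mylk2, Myl9 and Myl4 lie below it at 0.018, 0.035 and 0.051.

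No muscle was set apart by the light chains as a group. The departure of a muscle is its level minus the mean of the other 2. The median departure of the 10 detected probe sets was 0.012, 0.022 and -0.032 in muscles 1, 2 and 3. Over all probe sets tested the medians were 0.024, 0.013 and -0.036 in the same order. Muscle 3 thus had the lowest median in both, while the order of muscles 1 and 2 differed. Muscle 3 was the lowest for 6 of the 10 members, among them Myl2, Myl9, Mylpf and Mylk2, and for 47.1% of all probe sets. Only Myl6 and the x probe set of Myl3 had a departure above 0.2 in size in any muscle.

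**Figure D4:**
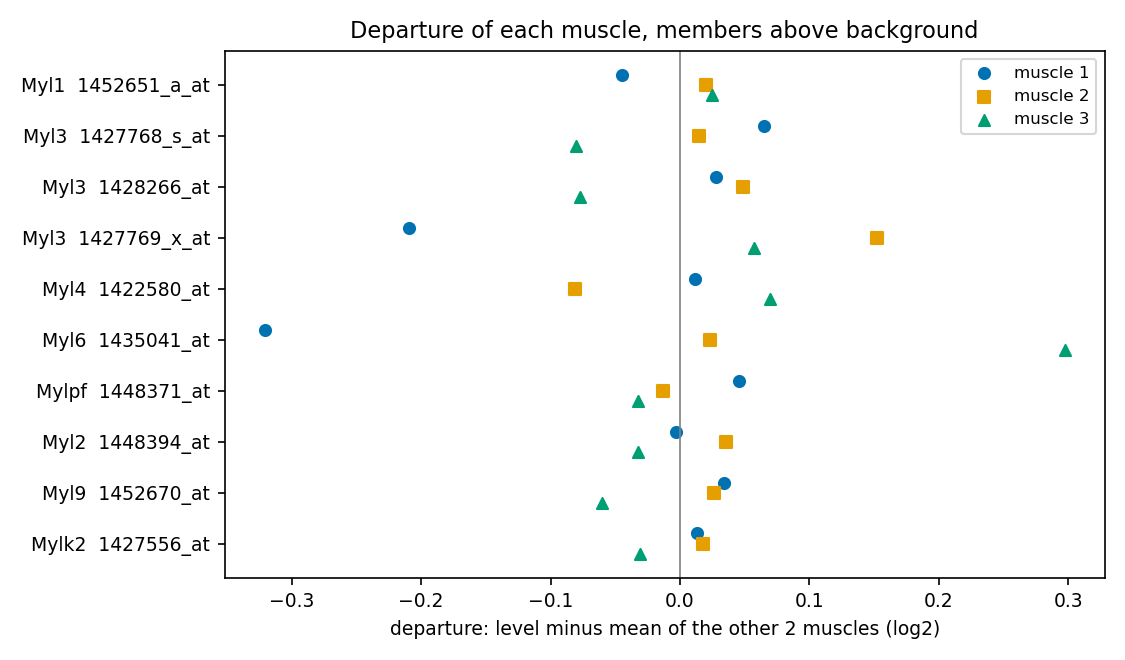
Departure of each muscle, as its log2 level minus the mean of the other 2 muscles, for the 10 member probe sets above background. Most points lie within 0.1 of 0, and the widest are those of Myl6, -0.32 in muscle 1 and 0.30 in muscle 3.

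The genes that act on light chains were measured alongside. Of 40 partner genes listed, 28 had a probe set of their own. By the highest probe set of each, 22 of these exceeded background in every muscle and 6 in no muscle, against 56.8% of all genes in every muscle. The variance test called 0 of their 34 probe sets tested, of which 2 had an unadjusted p under 0.05. These were a probe set of the non-muscle heavy chain Myh9 and the probe set of Myh14, which read 7.77, 7.33 and 7.85 in muscles 1, 2 and 3. Of the calmodulin-like genes, Calml4 was detected at 6.44 ± 0.15 and Calml3 was below background at 4.57 ± 0.20 (SD, n = 3 each).

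Among kinases of the light chain serine, Mylk, the kinase of smooth muscle and non-muscle cells, was at 9.12, 9.06 and 9.10 in muscles 1, 2 and 3 on probe set 1425506_at. Its probe set 1425505_at averaged 7.73 ± 0.12, and 1425504_at was below background at 3.83 ± 0.035 (SD, n = 3 each). The kinase Rock1 was at 9.07 ± 0.057 by its highest probe set, and the death-associated kinase Dapk2 at 7.70 ± 0.12. Its relative Dapk3 read 6.97, 6.91 and 7.12 in muscles 1, 2 and 3 on probe set 1423446_at. The other probe set of Dapk3 was below background in every muscle, at 3.94 ± 0.13. Cdc42bpa, another kinase of the list, averaged 7.33 ± 0.11 (SD, n = 3). Of 6 kinases measured 5 were detected in every muscle, against 56.8% of all genes, and citron kinase (Cit) was below background in all. No detected kinase had a range above 0.24 between muscles on its highest probe set.

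Myosin light chain phosphatase removes the phosphate again. Its catalytic subunit Ppp1cb was at 11.19, 11.22 and 11.09 in muscles 1, 2 and 3 on its highest probe set, and the related catalytic subunits Ppp1ca and Ppp1cc averaged 10.78 ± 0.041 and 11.59 ± 0.026 (SD, n = 3 each). The inhibitors of protein phosphatase 1 in the same list differed in detection. By their highest probe sets Ppp1r14b and Ppp1r14c were at 10.12 ± 0.085 and 10.34 ± 0.025. The other probe set of Ppp1r14b was below background in every muscle, at 5.50 ± 0.23. Ppp1r14a, the inhibitor CPI-17 of smooth muscle, was below background at 5.68 ± 0.19. Of the targeting subunits in the list only Ppp1r12c was measured, and it was also below background, at 5.39 ± 0.25. Ppp1r12a and Ppp1r12b had no probe set of their own, so their detection is not known. In all, 5 of the 7 phosphatase genes measured were detected in every muscle, against 56.8% of all genes.

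Further light chain genes outside the 10 members were detected in 2 of 3 cases. Myl12a and Myl12b, regulatory chains of non-muscle myosin, were at 11.50 ± 0.058 and 9.57 ± 0.080 by their highest probe sets. A second probe set of Myl12b was below background at 3.89 ± 0.067, and a second of Myl12a was above it at 8.42 ± 0.021 (SD, n = 3 each). Myl10 was below background at 5.76 ± 0.28. The heavy chains to which light chains bind were detected, by their highest probe sets, for 6 of 7 sarcomeric genes, all but Myh6. They were also detected for 3 of 3 smooth and non-muscle genes, Myh11, Myh9 and Myh14. The share of all genes detected in every muscle, to set beside these counts of light and heavy chains, was 56.8%.

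**Figure D5:**
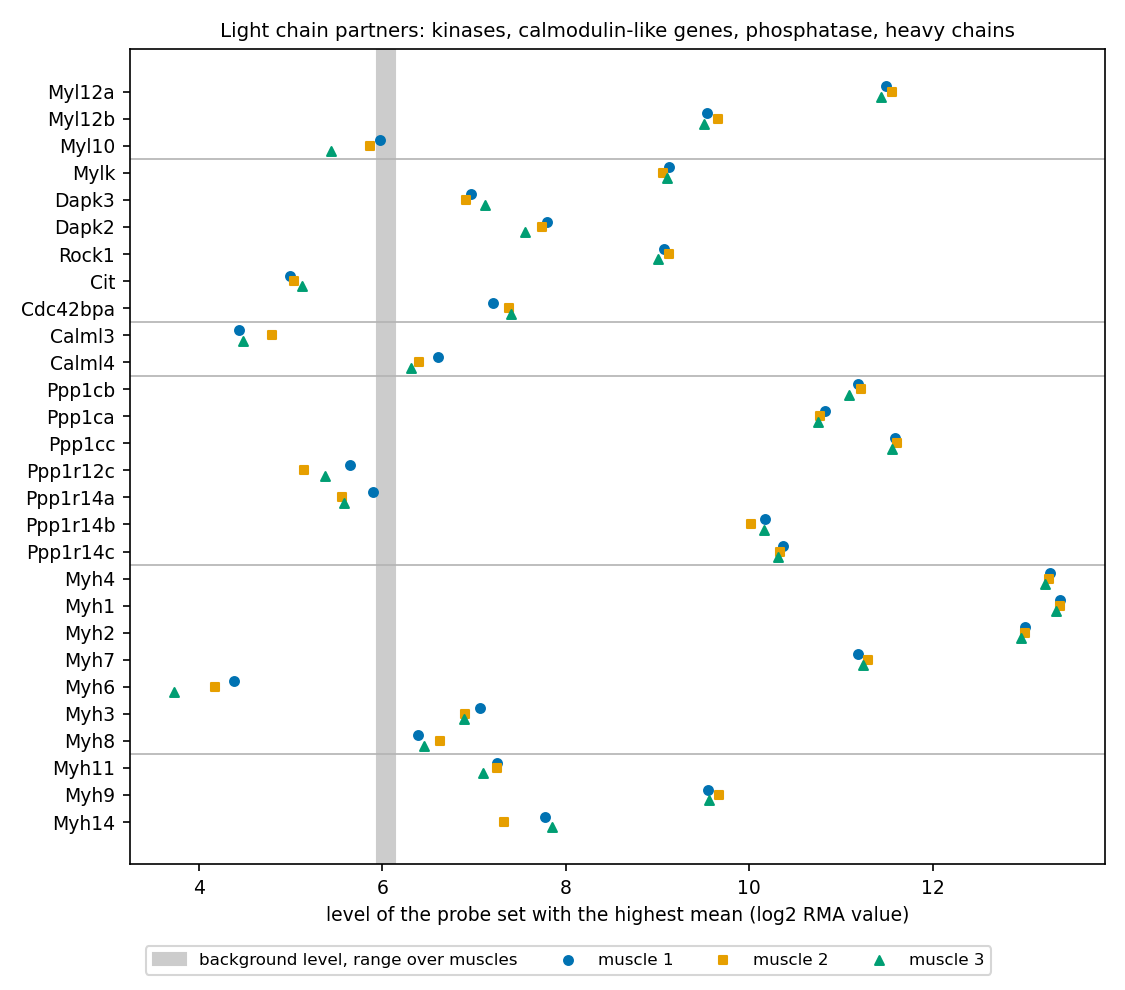
Level of 28 partner genes in muscle 1, muscle 2 and muscle 3 as log2 RMA values of the probe set with the highest mean, in the order of other light chains, kinases, calmodulin-like genes, phosphatase, sarcomeric heavy chains, and smooth and non-muscle heavy chains, separated by lines. Myl10, Cit, Calml3, Ppp1r12c, Ppp1r14a and Myh6 lie at or left of the grey band of background levels.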

How the data were processed

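Normal muscle RNA was isolated with Trizol, and biotin-labelled product was amplified from 500 ng of it, per the labels' protocols. The deposited values are on the log2 scale, with a value for every probe set of each array. RMA is named, without a version or settings, in the submitters' processing notes. Which arrays were normalized together is not given in the sources used here. RMA equalises the overall brightness of arrays, which would hide any shift common to the majority of genes. The table held 22690 probe sets, of which GEO's platform annotation gave 1 gene for 20393, several for 691 and none for 1606. Precision is limited by the number of arrays.

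The 3 samples form 1 group, so no contrast was tested. Means, SDs and ranges were taken over the 3 muscles. The background level was the 95th percentile over 55 genes (74 probe sets) that belong to other organs, 3 of which were themselves detected in all muscles by their highest probe set. The variance of each of 12124 probe sets above background in at least 1 muscle was compared with limma's prior variance, fitted robustly with a trend on level. An upper-tail F test with 2 degrees of freedom in the numerator was used, and Benjamini-Hochberg adjustment at 0.05 ran over all of them. The method was tested on simulated data drawn from the fitted prior, with shifts in 1 sample larger than the range of any detected member. Whether it finds spreads as small as those of the members was not tested. Members and lists were chosen with earlier results of these data known. By the rule for named genes, all members were named. Partner genes could be named from the kinase, calmodulin-like and phosphatase lists, and from the first 4 measured genes of each other list, and not every gene that the rule allows is named. Ncam1 and Tnnt2 fall outside the rule and were named after their values were seen. No gene was named for a pattern like that of a member, because 3 samples are too few for a correlation. Alternatives were quantile normalization, median centring, leaving out each muscle, a stricter background (99th percentile), no filter, the probe sets of a gene averaged, 1 probe set per gene, leaving out probe sets with suffix s or x, and other settings of limma. R 4.3.3 with limma 3.58.1 and Python 3.11.15 with pandas 2.3.3 were used.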

Additional observations from a re-analysis of the deposited data

How the results depend on the processing

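The count of member genes detected in all muscles was 8 under every alternative run for it. Median centring shifts a muscle and its background level alike, so it could not change this count. Leaving out a muscle could not change it either, as each member probe set was above background in every muscle or in none. Under each setting in which limma's variance test was run, which included neither averaging the probe sets of a gene nor leaving out those with suffix s or x, it called 0 member probe sets, with a lowest adjusted p between 0.934 and 0.990. Without muscle 3, 1 member probe set, 1427769_x_at of Myl3, had an unadjusted p under 0.05. All 26 mean levels of member probe sets under other normalizations stayed within 1 SD of their main value, and 23 of 26 ranges did. Median centring cannot change a mean over the 3 muscles, so of these means only those after quantile normalization could have moved. Leaving out a muscle cannot move a mean of 3 by 1 SD and can only narrow a range, so those values say nothing about stability. The 9 probe sets that limma called over the whole table became 4 with the background level at the 99th percentile, 16 with no filter, 25 after quantile normalization, and 0 with no trend in the prior or without the robust fit, where 417 and 511 had an unadjusted p under 0.05. Leaving out single muscles gave 0 to 1 such calls: 0 without muscle 1 or without muscle 2, where 554 and 507 had an unadjusted p under 0.05, and 1 without muscle 3. Fewer probe sets or samples were tested in some of these, and otherwise the cause was not tested. No paired analysis was possible because there is only 1 group. Probe sets near the top of the scale and those below background limit what can be said of Myl1, Mylpf, Myl6b and Myl7.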
